A study of Mus musculus with 6 samples.

Results

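Filamin C and 8 other genes of the actin cytoskeleton were described in 2 mouse lung squamous cell carcinoma (LUSC) cell lines. The 9 genes were *Flnc*, *Tpm2*, *Tln1*, *Tmod1*, *Svil*, *Scin*, *Coro2a*, *Wasl* and *Lmod2*. They were chosen by their part in the actin cytoskeleton and from the differences between the lines in these same 6 libraries, so those differences are given here as a description, and where calls are counted nothing is read from them. A gene was read only where its row lay near the start of chromosomes 4, 6 or 18, in stretches where the positions of the table follow the GRCm38 genome. These stretches held 8 of the 9 genes and 1191 of the 55359 rows of the table. Gene ends there can still differ between annotations, most for *Tpm2*, whose ends lay 985 and 182 bases from those of RefSeq. *Flnc* was the last of these genes before the limit on chromosome 6. *Scin*, which encodes the actin-severing protein scinderin, fell outside, on chromosome 12, with both ends 49999 bases from GRCm38, and its row was not read.

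The lines were UN-SCC679 and UN-SCC680, each grown from a lung tumor that the carcinogen NTCU had induced in an A/J mouse. Both were passed through immunodeficient mice and then A/J mice before the working lines were set up, and the sources used here name no engineered allele in either. Poly(A) RNA of 3 libraries per line was sequenced, with no further treatment named. Each line stands for 1 tumor, and the labels do not say that its 3 libraries came from separate cultures, so the spread between them may be technical. The libraries held 3568293 to 4381885 counts. Of the markers fixed for squamous epithelium, only *Klf4* lay in the readable stretches (1 of 12), so the squamous label could not be checked on keratins or *Trp63*.

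Actin filaments grow from nucleating complexes, are coated by tropomyosins, capped at their ends, cut and remodelled by severing proteins, and bundled or linked to the membrane by crosslinkers. Filamins are long dimeric crosslinkers that join filaments into networks and tie them to integrins and the cell membrane. Filamin A and B are made in most cells, while filamin C is best known from skeletal and cardiac muscle. Talin couples integrins to actin at focal adhesions, the sites through which spreading and migrating carcinoma cells hold the matrix. Of each family only some genes could be read, namely 1 of 3 filamins (*Flnc*), 1 of 2 talins (*Tln1*), 1 of 4 tropomyosins (*Tpm2*), and 2 of the 7 tropomodulins and leiomodins (*Tmod1* and *Lmod2*).

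The stretches before the start sites of *Flnc*, *Tpm2* and *Tln1* are shown because, among the genes read, *Flnc* differed most between the lines and the other 2 had the highest level per exon length. Each is the 250 bases before a RefSeq start site on GRCm38.p6, written 5′ to 3′ on the strand of the gene, with matches to the GC box (GGGCGG on either strand, overlapping matches joined) in capitals. For *Flnc* it is chr6:29432903-29433152 on the + strand, before the first of 2 start sites.
Flnc: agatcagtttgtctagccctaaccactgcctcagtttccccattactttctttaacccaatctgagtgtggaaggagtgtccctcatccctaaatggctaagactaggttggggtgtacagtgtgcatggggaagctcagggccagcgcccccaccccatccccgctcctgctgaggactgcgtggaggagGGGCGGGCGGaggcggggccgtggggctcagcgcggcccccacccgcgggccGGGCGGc
For *Tpm2* it is chr4:43523555-43523804 on the - strand.
Tpm2: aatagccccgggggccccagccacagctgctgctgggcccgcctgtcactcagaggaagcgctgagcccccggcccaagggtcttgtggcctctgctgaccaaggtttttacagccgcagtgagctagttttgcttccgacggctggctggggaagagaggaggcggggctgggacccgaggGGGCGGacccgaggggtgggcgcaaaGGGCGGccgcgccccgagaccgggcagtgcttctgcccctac
For *Tln1* it is chr4:43562584-43562833, also on the - strand.
Tln1: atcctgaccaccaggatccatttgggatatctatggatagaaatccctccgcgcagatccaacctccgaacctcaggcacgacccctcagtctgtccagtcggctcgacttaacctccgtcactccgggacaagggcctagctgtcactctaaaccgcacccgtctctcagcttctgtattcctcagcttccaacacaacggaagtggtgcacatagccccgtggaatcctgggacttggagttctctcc
The *Tpm2* and *Tln1* stretches reach into the span of the counted rows, which on the - strand begin at 43523765 and 43562691. The counted *Flnc* row begins at 29433255, which is 102 bases after the first start site and where the stretch of the second site, not shown, ends. The stretches of the 2 *Flnc* start sites overlap and share their GC boxes. The *Flnc* stretch shown holds 3 GC boxes, 2 of them overlapping, and the *Tpm2* stretch holds 2, while the *Tln1* stretch holds 0. Such stretches were read for 7 of the genes, 9 in all. A GC box was found in 6 of the 9, from 5 of the 7 genes, and in 32.7% of the 32851 stretches of the same length before all start sites in the table. The CArG box, the motif bound by serum response factor, was found in 0 of the 9 and in 1.47% of all. It was searched only as CC, then 6 bases of A or T, then GG, with no mismatch allowed. The MCAT core (CATTCC on either strand), bound by TEAD factors, was found in 3 of the 9, among them that of the second *Flnc* start site at -104, and in 12.6% of all. The TATA box (TATAAA on either strand) was found in 0 of the 9 and in 12.4% of all. These counts describe the letters alone.

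*Flnc* (ENSMUSG00000068699.13, chromosome 6, 29433255 to 29461882, + strand) had 6120, 7505 and 6228 counts in the UN-SCC679 libraries, and 9, 12 and 12 in those of UN-SCC680. The lines lay far apart, with every UN-SCC680 library near the lower end of what could be counted. In CPM, which are counts scaled to a common library size, the level was 1690 ± 47.7 in UN-SCC679 and 2.57 ± 0.383 in UN-SCC680 (mean ± SD, n = 3 each), which is 657-fold lower in UN-SCC680. The log2 fold change, UN-SCC680 minus UN-SCC679, was -9.34 with a standard error of 0.25. The exons of the row overlap no other row, so the counts in UN-SCC679 were not shared with a neighbor. Per library and per exon length, the ratio of *Flnc* to *Tln1* was 0.497 to 0.506 in UN-SCC679 and 0.000417 to 0.000589 in UN-SCC680. The ratio varied little within UN-SCC679.

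**Figure D1:**
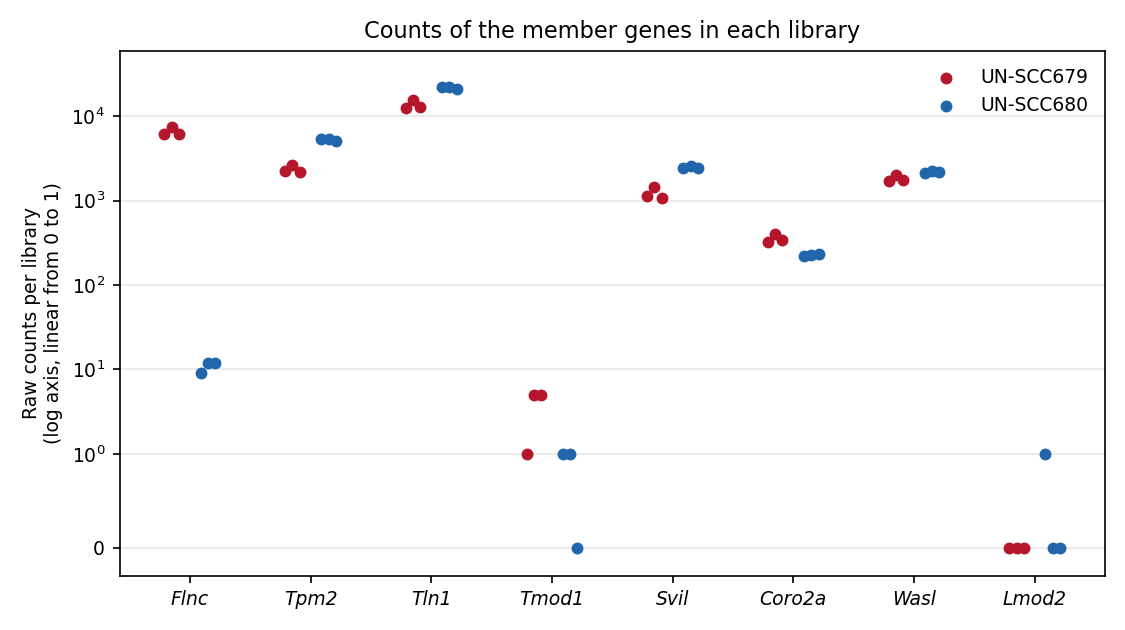
Raw counts of the 8 genes that could be read (y axis, logarithmic above 1 and linear from 0 to 1), with 1 point per library, UN-SCC679 in red and UN-SCC680 in blue. *Flnc* has 6120 or more counts in each UN-SCC679 library and 12 or fewer in each UN-SCC680 library, while *Tmod1* and *Lmod2* have at most 5 in any library.

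*Tln1* (ENSMUSG00000028465.17, chromosome 4, 43531519 to 43562691) encodes talin 1, the integrin-binding protein of focal adhesions in most non-muscle cells. It had 12620, 15748 and 12820 counts in UN-SCC679, and 22493, 22269 and 21231 in UN-SCC680. All UN-SCC680 libraries lay above all UN-SCC679 libraries. The mean was 3503 ± 108 CPM in UN-SCC679 and 5148 ± 169 CPM in UN-SCC680 (mean ± SD, n = 3 each), 1.47-fold higher in UN-SCC680 (log2 fold change 0.56, standard error 0.03, and 0.32 when the libraries were scaled on the rows in the readable stretches alone). *Creb3* overlaps 3.67% of its exon bases.

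*Tpm2* (ENSMUSG00000028464.17, chromosome 4, 43514711 to 43523765) encodes beta-tropomyosin, which lies along the filament and is abundant in muscle and in contractile non-muscle cells. Its counts were 2230, 2618 and 2192 in UN-SCC679, and 5384, 5358 and 5051 in UN-SCC680. The ranges did not overlap. From 600 ± 9.13 CPM in UN-SCC679 the level went to 1232 ± 43.9 CPM in UN-SCC680 (mean ± SD, n = 3 each), 2.05-fold higher (log2 fold change 1.04, standard error 0.04). *Tpm2* and *Tln1* are close neighbors on chromosome 4.

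*Tmod1*, which encodes the tropomodulin that caps the pointed ends of filaments in muscle and red cells, had 1, 5 and 5 counts in UN-SCC679, and 1, 1 and 0 in UN-SCC680. *Lmod2*, the leiomodin that lengthens thin filaments in heart muscle, had 0 counts in each UN-SCC679 library, and 1, 0 and 0 in UN-SCC680. A count of 0 allows up to 3 counts, which was 0.685 to 0.841 CPM in these libraries. Neither gene passed the filter on low counts and no fold change was fitted. For *Tmod1*, *Tstd2* overlaps 32.6% of the exon bases.

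*Svil* (ENSMUSG00000024236.19, chromosome 18, 4920540 to 5119299) encodes supervillin, a relative of gelsolin that links actin and myosin II to the membrane. It had 1148, 1437 and 1089 counts in UN-SCC679, and 2434, 2568 and 2456 in UN-SCC680. No UN-SCC679 library reached the lowest of UN-SCC680. The level was 312 ± 11.7 CPM in UN-SCC679 and 582 ± 8.47 CPM in UN-SCC680 (mean ± SD, n = 3 each), 1.87-fold higher (log2 fold change 0.90, standard error 0.05).

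*Coro2a* (ENSMUSG00000028337.15, chromosome 4, 46536937 to 46602202) encodes a coronin, one of a family of actin-binding proteins that act on branched networks. It had 322, 400 and 347 counts in UN-SCC679, and 219, 229 and 232 in UN-SCC680. Here UN-SCC679 was the higher line, again with no overlap. The level was 91.1 ± 5.20 CPM in UN-SCC679 and 53.0 ± 1.36 CPM in UN-SCC680 (mean ± SD, n = 3 each), 1.72-fold lower in UN-SCC680 (log2 fold change -0.78, standard error 0.08). The row *Gm16731* overlaps 5.09% of its exon bases.

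*Wasl* (ENSMUSG00000029684.15, chromosome 6, 24613804 to 24665008) encodes N-WASP, which switches on the Arp2/3 complex to start branched filaments. Its counts were 1714, 2028 and 1748 in UN-SCC679, and 2152, 2228 and 2182 in UN-SCC680. On the CPM scale the lines were close, at 468 ± 15.9 and 512 ± 1.99 (mean ± SD, n = 3 each), 1.09-fold higher in UN-SCC680. The log2 fold change of 0.13 (standard error 0.04) turned to -0.11 when the libraries were scaled on the rows in the readable stretches alone, so its direction depends on the scaling. The other 5 fitted genes kept their direction under each alternative that gave them a value, and *Flnc* had none with a filter of at least 10 counts in every library.

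Across all rows, 30.4% of the 8987 tested passed an adjusted p-value of 5e-05 in edgeR's quasi-likelihood test. Of all 8987, 15.3% were called higher in UN-SCC680 and 15.2% lower. Among the 357 tested rows in the readable stretches the shares were 52.4% in all, 37.5% higher and 14.8% lower, and the median log2 fold change was 0.23, against -0.003 over all rows. Of the 8 genes read, 6 passed the filter on low counts, 3 of these (*Tpm2*, *Tln1* and *Svil*) were called higher in UN-SCC680 and 2 (*Flnc* and *Coro2a*) lower, and *Wasl* was not called. *Flnc* passed that filter only through UN-SCC679, so it could be called only as lower. As the genes were chosen from this contrast, nothing is read from the count of calls. The size of the *Flnc* difference set it apart from the other 5 fitted genes, whose log2 fold changes ran from -0.78 to 1.04.

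To compare levels between genes, counts were also divided by exon length (RPKM, CPM per kilobase of exon). In UN-SCC679 the order was *Tln1* (357 ± 11.0), *Tpm2* (206 ± 3.14), *Flnc* (180 ± 5.08), *Wasl* (75.9 ± 2.58), *Svil* (29.1 ± 1.09) and *Coro2a* (14.1 ± 0.805 RPKM, SD, n = 3 each), and no neighbors in this order overlapped. In UN-SCC680 it was *Tln1* (525 ± 17.2), *Tpm2* (423 ± 15.1), *Wasl* (83.0 ± 0.322), *Svil* (54.4 ± 0.792), *Coro2a* (8.21 ± 0.211) and *Flnc* (0.274 ± 0.0407 RPKM, SD, n = 3 each), again without overlap. *Tmod1* and *Lmod2* came last in both lines, and in UN-SCC680 their ranges overlapped. The other 5 genes kept the same order in both lines, and *Flnc* moved from the third place to the last among the 6. Among the 357 tested rows of the readable stretches, *Flnc* ranked 48 by RPKM in UN-SCC679 and 340 in UN-SCC680, while *Tln1* ranked 21 and 15.

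**Figure D2:**
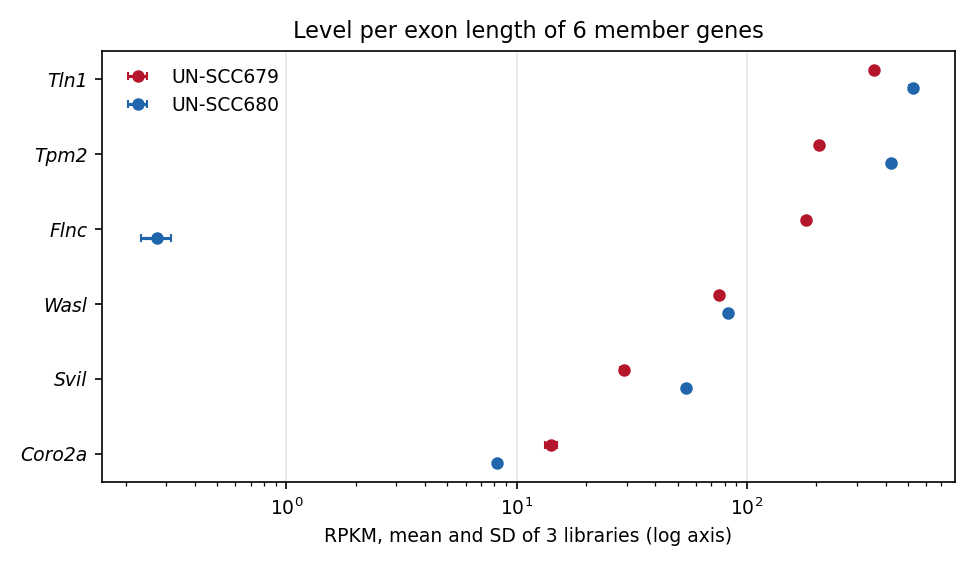
Level per exon length (x axis, RPKM, logarithmic) of the 6 genes that passed the filter, as the mean of 3 libraries with the SD as a bar, UN-SCC679 in red and UN-SCC680 in blue. *Tln1* and *Tpm2* lead in both lines, and *Flnc* lies at 180 in UN-SCC679 and at 0.274 in UN-SCC680.

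A list of 205 genes of the actin cytoskeleton was then read for the rest of the pathway. It was written from general knowledge but with earlier results of these data known, so its calls are given as a description. Only 22 of the 205 genes lay in the readable stretches, 8 of which were described above. Of the other 14, 10 passed the filter and were tested in the fit over all rows. There 4 were higher in UN-SCC680, 4 were lower and 2 did not pass (adjusted p-value of 5e-05, edgeR). Over all rows tested 30.4% passed, and 52.4% of those in the readable stretches. Of the 4 lower genes, 3 (*Cttnbp2*, *Ppp1r9a* and *Gem*) passed the filter only through UN-SCC679, where they were high, so the count is not read as a balance of directions. When each library had to reach 10 counts, 5 of 7 were called, 4 higher and 1 lower. Under that filter 2262 of all 7651 rows tested were called.

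Among proteins that link actin to adhesions and the membrane, 3 of 4 rose and 1 fell. In the readable stretches 37.5% of tested rows were called higher and 14.8% lower, and 4 genes are too few to compare with these shares. *Ptpn3*, which encodes a tyrosine phosphatase with a FERM domain, had 262, 297 and 252 counts in UN-SCC679, and 1453, 1498 and 1476 in UN-SCC680 (4.99-fold higher, log2 fold change 2.32, standard error 0.07, adjusted p = 2.81e-34 from edgeR). *Epb41l4b*, a band 4.1 protein that also carries a FERM domain, was far less abundant and rose from 5.57 ± 0.590 to 21.9 ± 1.88 CPM (mean ± SD, n = 3 each; adjusted p = 3.49e-13 from edgeR). *Ctnnal1*, a relative of alpha-catenin, had 2546, 2920 and 2445 counts in UN-SCC679, and 6526, 6686 and 6899 in UN-SCC680 (2.33-fold higher, log2 fold change 1.22, adjusted p = 6.87e-32 from edgeR). *Tes*, a LIM protein of focal adhesions and stress fibers, fell from 1043 ± 23.4 to 641 ± 6.18 CPM (mean ± SD, n = 3 each; log2 fold change -0.70, adjusted p = 1.72e-22 from edgeR). In each of these 4 genes the libraries of the lines did not overlap, which also held for *Wasl* and *Tesk1*, neither of them called. How many of all tested rows showed the same was not counted, so nothing is read from it. *Tln1* was thus higher and *Tes* lower in UN-SCC680, although both proteins sit at focal adhesions.

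For nucleation and branching, only *Cttnbp2*, which encodes a cortactin-binding protein known from neurons, was tested. Against 38, 44 and 38 counts in UN-SCC679 it had 0 throughout UN-SCC680, and was at least 14.9-fold lower there, with a floor of 3 counts per library (adjusted p = 3.11e-15 from edgeR). As *Cttnbp2* passed the filter only through UN-SCC679, it could be called only as lower, and its p-value is not read as support. Of the capping proteins, *Capza2*, the alpha 2 subunit of the heterodimer that closes the barbed end, was abundant in both lines, at 1633 ± 15.7 and 1837 ± 50.6 CPM (mean ± SD, n = 3 each). The difference, 0.17 on the log2 scale with a standard error of 0.04, passed the threshold (adjusted p = 4.33e-06, edgeR), but it turned to -0.066 when scaled on the rows of the readable stretches. The call of *Capza2* was also lost without UN-SCC679 replicate 2 (adjusted p = 0.000168), UN-SCC679 replicate 3 (0.000108) or UN-SCC680 replicate 2 (6.05e-05, edgeR), with a replicate block (6.38e-05) and with scaling by library size alone (5.03e-05), within a range of 3.27e-10 to 0.0483 over all alternatives.

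Of 4 genes that signal to actin, 2 did not pass. The other 2 passed the filter on low counts only through UN-SCC679. They could thus be called only as lower, and their p-values are not read as support. *Ppp1r9a*, which encodes the actin-binding scaffold neurabin, had 31, 46 and 18 counts in UN-SCC679, and 5, 5 and 4 in UN-SCC680 (log2 fold change -2.85, standard error 0.44, adjusted p = 2.40e-09 from edgeR). *Gem*, a small GTP-binding protein, had 23, 28 and 13 counts in UN-SCC679, and 4, 5 and 8 in UN-SCC680 (log2 fold change -2.01, standard error 0.41, adjusted p = 6.09e-06 from edgeR). The call of *Gem* was lost without UN-SCC679 replicate 2 (adjusted p = 0.000404), UN-SCC680 replicate 1 (0.000251) or UN-SCC680 replicate 2 (0.000115, edgeR), and also in DESeq2 and limma-voom, with 3.98e-07 to 0.000440 over all alternatives. *Tesk1*, a kinase of cofilin, gave 0.27 on the log2 scale (adjusted p = 0.00118, edgeR), with 32.1% of its exon bases overlapped by *Cd72*. *Arhgef39*, a guanine nucleotide exchange factor, gave 0.16 (adjusted p = 0.0274, edgeR), with overlapping libraries, and -0.072 when scaled on the readable stretches. The 4 genes that did not pass the filter were the testis genes *Actl7a*, *Actl7b*, *Ccin* and *Fscn3*, with 4 or fewer counts in any library.

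**Figure D3:**
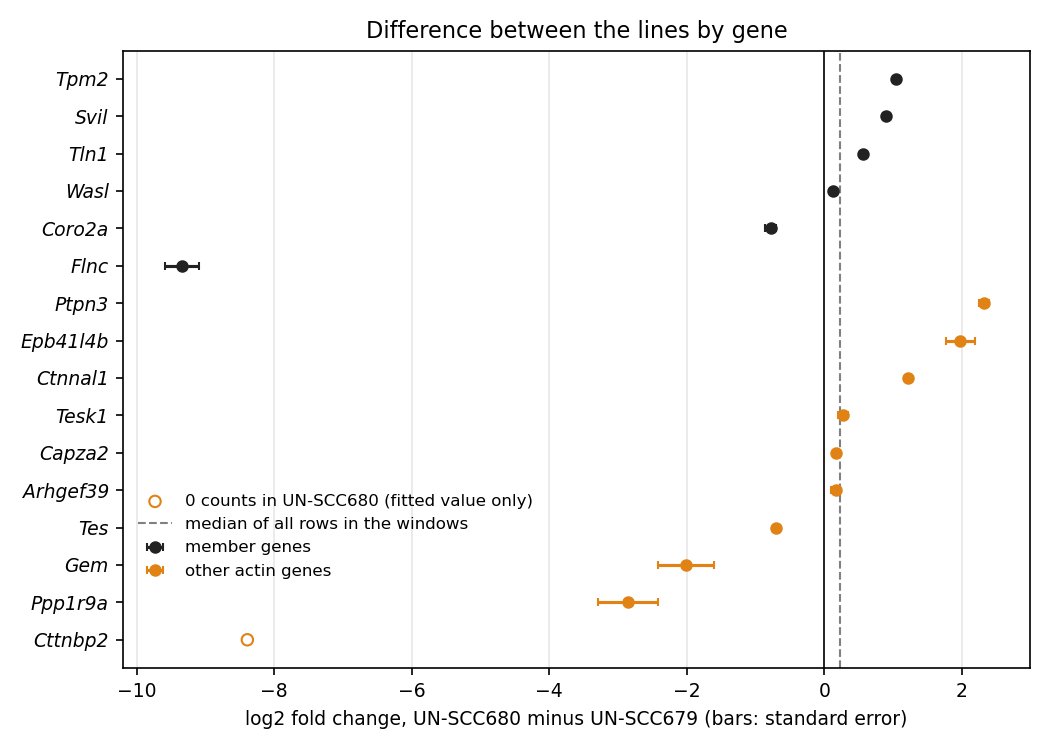
Log2 fold change of UN-SCC680 minus UN-SCC679 (x axis) with its standard error, for the 6 fitted genes described first (black) and the 10 other actin genes tested (orange). The open circle marks *Cttnbp2*, with 0 counts in UN-SCC680, whose fitted value of -8.39 depends on the prior count. The dashed line marks the median of the rows in the readable stretches at 0.23, and *Flnc* stands at -9.34.

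The genes on both sides of *Flnc* were read as well. *Ccdc136*, whose near end lies at -6.262 kb from *Flnc*, had 404, 490 and 406 counts in UN-SCC679, and 370, 319 and 355 in UN-SCC680 (log2 fold change -0.44, standard error 0.07, adjusted p = 4.29e-07 from edgeR). *Atp6v1f*, a subunit of the vacuolar proton pump that starts 5.835 kb after it, had 750, 939 and 718 counts, and 843, 869 and 881 (log2 fold change -0.02, standard error 0.06, adjusted p = 0.789 from edgeR). Both neighbors were thus counted in each UN-SCC680 library, with 319 or more counts. Of the 9 other tested rows whose start lay within 1 Mb of that of *Flnc*, 0 were called higher in UN-SCC680 and 2 lower. Over the readable stretches 37.5% were called higher and 14.8% lower. Of the 9 rows, 8 lie before *Flnc*, which is close to the limit of the stretch. The log2 fold changes of the 9 ran from -0.80 to 0.29, and 0 of them passed 1 in absolute value.

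**Figure D4:**
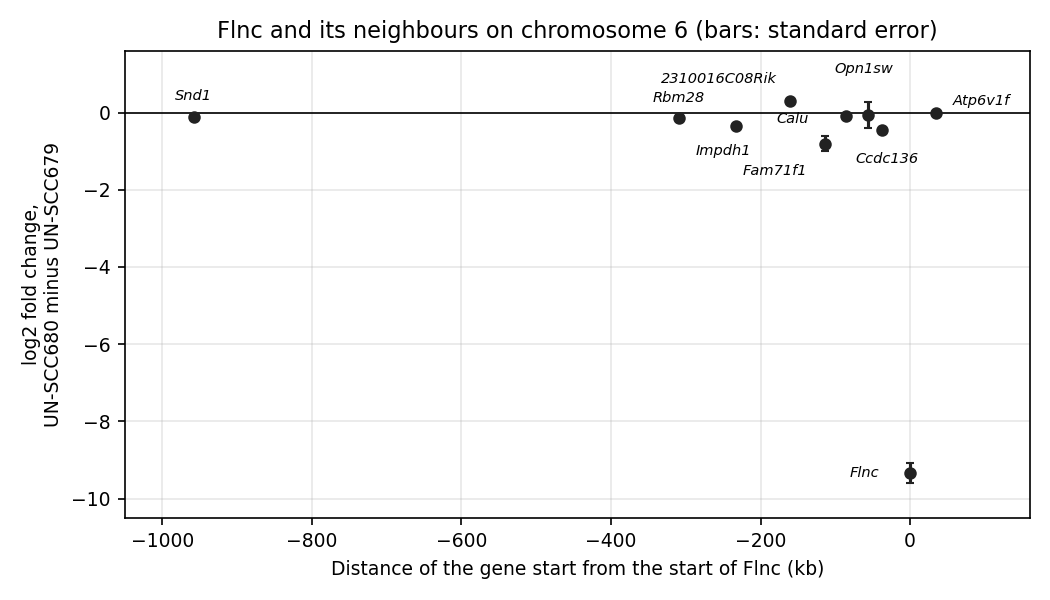
Log2 fold change of UN-SCC680 minus UN-SCC679 with its standard error (y axis) against the distance of each gene start from the start of *Flnc* (x axis, kb), for tested rows in the readable stretch of chromosome 6. The 9 neighbors lie between -0.80 and 0.29 and *Flnc* at -9.34.

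The genes most like *Flnc* were taken as the 5 tested rows of the readable stretches with the smallest Euclidean distance between centered log2 CPM profiles over the 6 libraries. They were *Pdk4*, *Casd1*, *Slc25a13*, *Epha7* and *Decr1*, at distances from 0.493 to 1.52 in that order. *Epha7*, an ephrin receptor, had 2244, 2713 and 2088 counts in UN-SCC679, and 8, 3 and 7 in UN-SCC680. *Pdk4*, a kinase that holds back pyruvate dehydrogenase, had 1724, 1973 and 1605, and 0, 1 and 1. Of the 5, 3 lie on chromosome 6 and 2 on chromosome 4, and 0 of them belong to the actin list. With 2 groups of 3 libraries, likeness here means little more than a large drop from one line to the other.

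Markers of other cell types were read beside these genes, although few of them lay in the readable stretches. Of 10 fibroblast markers 1 could be read, *Col1a2*, a chain of type I collagen, at 26546 to 28858 CPM in UN-SCC679 and 2183 to 2362 CPM in UN-SCC680. It was 12.4-fold lower in UN-SCC680, the direction of *Flnc* and *Coro2a* and the opposite of *Tpm2*, *Tln1* and *Svil*. Its part in any of these differences was not tested. Of 13 muscle markers, *Musk* and *Asb15* could be read. *Asb15* had 11, 12 and 9 counts in UN-SCC679, and 1, 0 and 2 in UN-SCC680, the direction of *Flnc*, while *Musk* had 5 or fewer in any library. Their summed level was 2.50 to 4.28 CPM in UN-SCC679 and 0.461 to 0.474 CPM in UN-SCC680, and its part in the *Flnc* difference was not tested. Of the genes described above as known from muscle, *Lmod2* and *Tmod1* were near 0 in both lines. *Tpm2*, also abundant in muscle, was at 600 CPM in UN-SCC679 and 1232 CPM in UN-SCC680, opposite in direction to *Flnc*. The 2 readable of 10 immune markers, *Pax5* and *Cd72*, had at most 1 and 10 counts, and 0 of 5 endothelial markers could be read. *Klf4* was at 29.2 to 30.3 CPM in UN-SCC679 and 276 to 294 CPM in UN-SCC680, opposite to *Flnc*. In RNA of whole cultures, fewer cells that make a transcript and less of it per cell cannot be told apart.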

How the data were processed

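RNA of 2 cell lines was sequenced in 3 libraries each. Whole-number counts for each Ensembl gene, not normalized, were deposited by the authors in a table with the layout of featureCounts that also gives exon positions and length. The labels name featureCounts and mm10, and the paper's methods name Trimmomatic, Kallisto on mm10 and DESeq2. Whether counting used strand is not given in the sources used here, so reads of overlapping genes cannot be told apart. As the table's positions depart from mm10 (GRCm38) further along, as at *Scin*, genes were read only at the start of chromosomes 4, 6 and 18, where 387 of the 573 rows with a RefSeq position matched GRCm38.p6 to 10 bases at one end or the other. Columns were matched to libraries by line and replicate number, and 0 columns were unused. The members and lists were chosen with earlier results of these data known.

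Counts were filtered with filterByExpr, scaled by TMM over all rows and tested by quasi-likelihood in edgeR, p-values being adjusted over 8987 rows (Benjamini-Hochberg) with a threshold of 5e-05. Standard errors came from the fitted variances, taken as no less than counting error. The fit was tested on simulated data. Profiles used log2 CPM with a prior count of 2. Replicates differed by more than sampling noise (chi-square per degree of freedom 1.11 to 1.65), and each library was entered as 1 sample. That difference does not show separate cultures, and the p-values measure spread between libraries, not between tumors. Named were all 9 members, all tested genes of the actin list, the 5 genes most like *Flnc* and its nearest tested neighbors. The bound given for *Cttnbp2* from a floor of 3 counts covers counting error only. Alternatives were other scalings and filters, DESeq2, limma-voom, other thresholds, a replicate block and leaving out each library. Python 3.11.15 was used with pandas 2.3.3, NumPy 2.4.6 and matplotlib 3.10.9, and R 4.3.3 with DESeq2 1.42.0, edgeR 4.0.16 and limma 3.58.1.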

Additional observations from a re-analysis of the deposited data

How the results depend on the processing

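For the 6 fitted members, 89 of 95 log2 fold changes under alternatives moved by less than the spread between replicates. All that moved by more came from scaling on the readable stretches, which lowered each of the 6 members, as for *Tpm2* from 1.04 to 0.80. Under it 5 members kept their sign and *Wasl* turned to -0.11. That scaling, chosen after seeing the data as was leaving out mitochondrial rows, moved the median log2 fold change of all tested rows from -0.003 to -0.24, turned *Capza2* to -0.066 and *Arhgef39* to -0.072, and changed the share of called rows that were higher in UN-SCC680 from 50.1% to 25.5%. *Flnc* ran from -9.58 to -9.22 over the alternatives that kept it, since a filter of at least 10 counts in every library removed it. The 2736 rows called became 5248 at an adjusted p-value of 0.05 and 1024 with an absolute log2 fold change over 1. The 8 other actin genes called became 5 of 7 tested with at least 10 counts in every library, since that filter removes genes near 0 in one line. With 1 library left out, 2225 to 2611 rows and 6 to 8 of these genes were called. With a replicate block 2528 rows and 7 of these genes were called. The deviations of same-numbered libraries had correlations of -0.038, -0.00052 and -0.022, which shows no pairing by number.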

Other observations

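The neighborhood of *Tln1* and *Tpm2* on chromosome 4 was also read. Of the 31 other tested rows whose start lay within 1 Mb of that of *Tln1*, *Tpm2* included, 11 were called higher in UN-SCC680 and 1 lower (adjusted p-value of 5e-05, edgeR), against 37.5% and 14.8% of the tested rows of the readable stretches. Their median log2 fold change was 0.38, beside 0.56 for *Tln1* and 1.04 for *Tpm2*, with a range from -0.83 to 6.75 and 7 rows over 1 in absolute value. The highest were *Glipr2* (6.75), *Car9*, a carbonic anhydrase (3.30), and *Reck*, a membrane inhibitor of metalloproteinases (2.34). The row next to *Tln1*, *Creb3*, a transcription factor held in the membrane of the endoplasmic reticulum, went from 180 to 214 CPM (log2 fold change 0.25, adjusted p = 5.22e-05 from edgeR), just short of the threshold. *Clta*, the light chain A of clathrin, rose from 615 to 848 CPM (log2 fold change 0.46, adjusted p = 1.96e-15 from edgeR). *Vcp*, an ATPase that extracts proteins for degradation, fell from 2748 to 1824 CPM (log2 fold change -0.59, adjusted p = 1.31e-22 from edgeR). These 6 neighbors were named after their values were seen.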
